A study of Homo sapiens with 18 samples.

Results

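The transcripts described here are 9 genes of the TGF-beta and BMP response, chosen by name: the ligand genes *TGFB1* and *TGFB2*, the inhibitory SMAD genes *SMAD6* and *SMAD7*, the 4 inhibitor of differentiation genes *ID1*, *ID2*, *ID3* and *ID4*, and the matrix gene *TGFBI*. All 9 were found among 26702 genes in the deposited tables, and all 9 were in each of the 6 tables. The ratio of the highest to the lowest of the 6 group levels was widest for *SMAD6*, and *TGFBI* had the largest difference in response between knockdown and siControl cells. *SMAD6* was 3.26-fold lower after siANKRA2 than after siControl in DMSO, and *TGFBI*, which Nutlin-3a raised 1.77-fold in siControl cells, fell 1.27-fold under the same treatment in siANKRA2 cells.

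Ligands of the TGF-beta and BMP families bind pairs of serine/threonine kinase receptors at the cell surface, and the receptors phosphorylate SMAD proteins that enter the nucleus with SMAD4 and switch on target genes. BMP signals typically raise the *ID* genes, whose products lack a DNA-binding region and hold E proteins such as TCF3 off the DNA, thereby delaying differentiation. SMAD6 and SMAD7 are produced in response to the signal and block it at the receptors, and TGFBI is a secreted protein of the extracellular matrix named for its induction by TGF-beta. In bone, where both ligand families are stored in the matrix, they control the formation of osteoblasts.

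The samples were U2OS cells, a human osteosarcoma line with functional p53, in 6 groups of 3 samples. Cells transfected with siControl, siANKRA2 or siRFXANK received either 10 µM Nutlin-3a, which frees p53 from its inhibitor MDM2, or its solvent DMSO for 24 h, and polyadenylated RNA was sequenced. No group is without transfection. ANKRA2 and RFXANK are related ankyrin repeat proteins, and RFXANK is a subunit of the complex that RFX5 forms on MHC class II promoters. Each target has 1 siRNA label, and the 18 samples share 1 cell line. The siRFXANK samples were registered separately, carry labels of another form and have no siControl samples of their own, so that in siRFXANK over siControl a batch and the siRNA cannot be told apart. Nothing states that the samples of a group are separate cultures. The p-values rest on the spread between samples in the authors' joint fit, not in a single group. They may not cover the spread between cultures.

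The deposited values are comparisons of groups without values per library, and the depth of each library is unknown. *ANKRA2* stood at a log2 of -1.81 in DMSO and -2.58 in Nutlin-3a after siANKRA2, and *RFXANK* at -2.96 and -3.16 after siRFXANK. *CDKN1A*, the p53 target that encodes the CDK inhibitor p21, had a log2 response to Nutlin-3a of 3.27 in siControl, 1.42 in siANKRA2 and 2.45 in siRFXANK cells, and was higher by 2.04 in siANKRA2 than in siControl cells in DMSO. Of 8 markers of osteoblasts and mesenchyme, *VIM* and *COL1A1* had means of 55026 and 64042 normalized counts, *RUNX2* 454, *SPP1* 204 and *ALPL* 148. *COL1A2* was at 33.2 and *BGLAP* at 2.08, and *SP7* was not found by name among the genes with deposited values. Of 6 epithelial markers, *KRT8* had a mean of 21456, *KRT18* of 12960, *EPCAM* of 161 and *CDH1* of 32.9, while *KRT19* and *ESRP1* were at 1.67 and 7.77. The label "epithelial cells" of the siRFXANK samples thus has markers at high, intermediate and low means.

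The positions below are from GENCODE 29 on GRCh38. On the plus strand lie *ID1* (chr20:31605283-31606515), *ID2* (chr2:8678845-8684453), *ID4* (chr6:19837386-19840684), *SMAD6* (chr15:66702228-66782848), *TGFB2* (chr1:218346235-218444619) and *TGFBI* (chr5:136028895-136063818). The minus strand carries *ID3* (chr1:23557918-23559794), *SMAD7* (chr18:48919853-48952052) and *TGFB1* (chr19:41301587-41353911). Exons of *TGFB1* overlap *HNRNPUL1* over 257 bases and *TMEM91* over 1222 bases on the other strand, *ID4* overlaps *AL022068.1* over 869 bases and *ID2* overlaps *ID2-AS1* over 558 bases. The means of the neighbours were 15259 for *HNRNPUL1*, 44.8 for *TMEM91*, 24.2 for *AL022068.1* and 6.29 for *ID2-AS1*. Whether the counting used strand is not given in the sources used here, and reads in the shared bases could belong to either gene. Of the longest *TGFB2* transcript, 26.7% occurs also in *TGFB2-OT1*, a transcript annotated within it, so the values of *TGFB2* are uncertain to that extent. For *ID2* and *TGFB1* the shared part was 3.98% and 0.584%, and for the other 6 genes 0.

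Promoter sequences of RefSeq on GRCh38.p14, each from 250 bases before to 50 bases after the start site, were matched for 8 of the 9 genes, with *SMAD7* as the missing entry. They were searched on both strands for GTCTAGAC, a palindromic SMAD element, GGCGCC, a GC-rich SMAD motif, a BMP response element of GGCGNC followed after 5 bases by GTCT, the X-box motifs GTTGCC and GTTGCT of RFX proteins, and the p53 decamer. The palindrome occurred in *SMAD6* alone, where it began at position -12 from the start, and 71 of 35116 promoters (0.202%) hold it. GGCGCC occurred in *TGFBI* alone, at position -111, and 19.2% of all promoters hold it. The BMP response element as spelled can include GGCGCC and part of GTCTAGAC, and the remaining motifs are separate from both. None of these others was in any of the 8 windows, and they occurred in 0.350% (BMP response element), 12.2% (GTTGCC), 12.8% (GTTGCT) and 6.63% (p53 decamer) of all promoters. Each gene has 1 window, at 1 RefSeq start, and other starts were not searched. The *TGFB2* window (chr1:218345086-218345385) ends before the GENCODE start of the gene, and the *ID2* window (chr2:8681806-8682105) lies inside the GENCODE gene. Below are the 250 bases before the start of *SMAD6* (chr15:66701986-66702235, plus strand) and *TGFBI* (chr5:136028738-136028987, plus strand), the genes with a matched motif, and of *ID3* (chr1:23559502-23559751, minus strand), the *ID* gene with the widest range of levels. Capitals mark that motif, and *ID3* has none.
SMAD6: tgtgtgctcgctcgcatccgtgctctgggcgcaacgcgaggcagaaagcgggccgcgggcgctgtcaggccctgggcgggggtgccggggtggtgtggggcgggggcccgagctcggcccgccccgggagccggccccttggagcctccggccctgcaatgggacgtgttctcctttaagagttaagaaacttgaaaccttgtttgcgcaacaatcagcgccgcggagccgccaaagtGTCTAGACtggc
TGFBI: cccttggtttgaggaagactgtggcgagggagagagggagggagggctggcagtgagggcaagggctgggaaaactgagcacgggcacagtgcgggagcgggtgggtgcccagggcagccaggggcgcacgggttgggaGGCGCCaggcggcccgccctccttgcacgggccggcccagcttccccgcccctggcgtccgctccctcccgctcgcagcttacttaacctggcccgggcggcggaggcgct
ID3: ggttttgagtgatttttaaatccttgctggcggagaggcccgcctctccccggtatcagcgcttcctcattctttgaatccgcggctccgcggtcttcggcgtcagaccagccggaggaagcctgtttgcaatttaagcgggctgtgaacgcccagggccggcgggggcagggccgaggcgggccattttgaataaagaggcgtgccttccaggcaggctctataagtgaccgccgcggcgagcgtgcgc

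For each gene the level in the 6 groups was rebuilt from the deposited mean and fold changes, in normalized counts with a standard error of 0.030 to 0.078 on the log2 scale. Per kilobase of exon, the deposited mean was highest for *ID1* (7087), followed by *ID3* (2719), *TGFB1* (1938), *TGFBI* (687) and *TGFB2* (371), and lowest for *ID4* (153), *ID2* (133), *SMAD7* (119) and *SMAD6* (81.0). The ratio of the highest to the lowest group was widest for *SMAD6* at 4.22 and *ID3* at 3.35, and smallest for *SMAD7* at 1.35 and *ID1* at 1.55. Of 45 pairs of neighbouring groups in the 9 orders, 28 differed and 17 did not pass a normal test on the standard errors, adjusted over the 45 pairs. The absolute scale of these levels is approximate, because the deposited mean may cover samples beyond the 18. For *ANKRA2* it implies a level 153 times that fitted from the standard errors, against 0.674 times for *SMAD7* and up to 1.12 times for *SMAD6* among the 9 genes, and the ratios between groups do not depend on it. In bulk RNA, fewer cells that express a gene and less RNA per cell cannot be told apart.

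**Figure D1:**
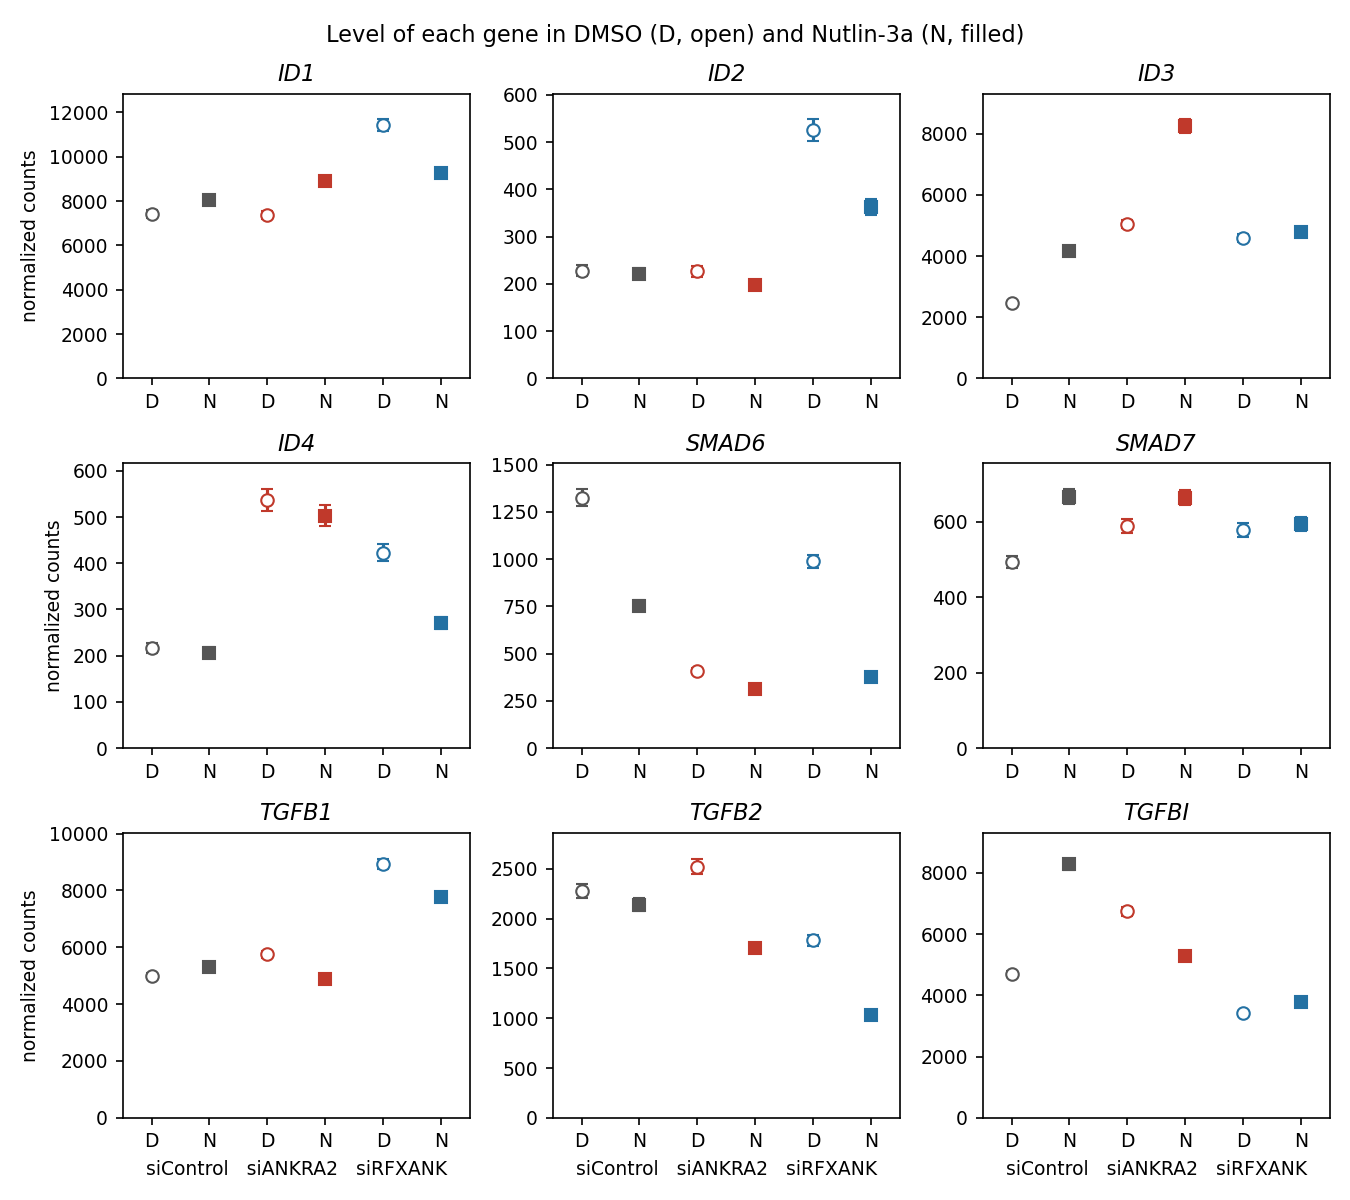
Level of each gene in normalized counts (y axis, from 0) in DMSO (D, open) and Nutlin-3a (N, filled) for siControl, siANKRA2 and siRFXANK cells, with bars of 1 standard error. *SMAD6* is highest in siControl cells in DMSO at 1326 and lowest in siANKRA2 cells in Nutlin-3a at 315, and *TGFB2* is lowest in siRFXANK cells in Nutlin-3a at 1034.

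*TGFB1* encodes the TGF-beta ligand made by most cell types. Its level was 4997 normalized counts in DMSO and 5309 in Nutlin-3a with siControl, 5750 and 4901 in siANKRA2 cells, and 8925 and 7774 in siRFXANK cells. Both siRFXANK groups were above the other 4, while the lowest 3, both siControl groups and the siANKRA2 group in Nutlin-3a, held no neighbours that differed. The log2 response to Nutlin-3a did not pass in siControl cells (0.09, 95% interval 0.00 to 0.17, DESeq2 adjusted p = 0.096), and *TGFB1* fell by 0.23 in siANKRA2 cells (DESeq2 adjusted p = 1.2e-06) and by 0.20 in siRFXANK cells. Against siControl, siRFXANK was higher by 0.84 in DMSO and 0.55 in Nutlin-3a (DESeq2 adjusted p = 8.3e-82 and 1.2e-35). After siANKRA2 the sign of the difference depended on the treatment, with 0.20 in DMSO and -0.12 in Nutlin-3a (DESeq2 adjusted p = 1.2e-05 and 0.019).

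*TGFB2* encodes a second ligand that signals through the same receptors with the help of the co-receptor TGFBR3. Its level was 2273 in DMSO and 2140 in Nutlin-3a with siControl, 2522 and 1703 in siANKRA2 cells, and 1781 and 1034 in siRFXANK cells. Thus siRFXANK cells in Nutlin-3a held the lowest level, well separated from the next. The log2 response was -0.09 in siControl cells (95% interval -0.21 to 0.03, DESeq2 adjusted p = 0.28), and *TGFB2* fell by 0.57 in siANKRA2 cells (DESeq2 adjusted p = 5.4e-18) and by 0.78 in siRFXANK cells (normal test on DESeq2 values, adjusted p = 8.6e-32). Nutlin-3a thus lowered both ligand genes in cells of either knockdown. After siRFXANK, *TGFB2* was lower than in siControl cells by 0.35 in DMSO and 1.05 in Nutlin-3a, opposite in sign to *TGFB1*. After siANKRA2 it was 0.15 higher in DMSO and 0.33 lower in Nutlin-3a on the log2 scale.

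*SMAD6* encodes the inhibitory SMAD that acts mainly on BMP receptors, and it carries the palindromic SMAD element printed above. In siControl cells its level was 1326 in DMSO and 754 in Nutlin-3a, in siANKRA2 cells 407 and 315, and in siRFXANK cells 988 and 374. Every knockdown group was below the siControl group of the same treatment, and every Nutlin-3a group below the DMSO group of the same siRNA. Nutlin-3a lowered *SMAD6* by a log2 of 0.81 in siControl cells (standard error 0.071, DESeq2 adjusted p = 1.4e-29), 0.37 in siANKRA2 cells (standard error 0.088, DESeq2 adjusted p = 0.00015) and 1.40 in siRFXANK cells (standard error 0.079, normal test on DESeq2 values, adjusted p = 3.9e-69). Of the 9 genes, *SMAD6* alone fell in all 3. Relative to siControl, *SMAD6* had a log2 value of -1.70 in DMSO and -1.26 in Nutlin-3a after siANKRA2 (DESeq2 adjusted p = 4.5e-107 and 8.9e-51), and -0.42 and -1.01 after siRFXANK (DESeq2 adjusted p = 4.8e-09 and 7e-35). The siANKRA2 cells in DMSO and the siRFXANK cells in Nutlin-3a were neighbours in the order whose difference did not pass (adjusted p of the normal test on DESeq2 values = 0.22).

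*SMAD7*, whose product blocks TGF-beta and BMP receptors and brings ubiquitin ligases to them, varied least among the 9 genes. Its level was 494 in DMSO and 666 in Nutlin-3a with siControl, 587 and 664 in siANKRA2 cells, and 577 and 594 in siRFXANK cells. The siControl cells in DMSO lay below all other groups. Nutlin-3a raised *SMAD7* by 0.43 in siControl cells (DESeq2 adjusted p = 5.4e-11) and by 0.18 in siANKRA2 cells (DESeq2 adjusted p = 0.018), while the value of 0.04 in siRFXANK cells (95% interval -0.08 to 0.16) did not pass. Both knockdowns were above siControl in DMSO, with a log2 of 0.25 for siANKRA2 and 0.23 for siRFXANK. In Nutlin-3a the siRFXANK cells were 0.16 below siControl (DESeq2 adjusted p = 0.022), and for siANKRA2 the difference was -0.01 (95% interval -0.13 to 0.12). The direction of *SMAD6* and *SMAD7*, which are both feedback inhibitors, was opposite in siControl and siANKRA2 cells in response to Nutlin-3a and in both knockdowns in DMSO.

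*ID1* had the highest level of the *ID* genes per kilobase. In normalized counts it was at 7423 in DMSO and 8027 in Nutlin-3a with siControl, 7376 and 8891 in siANKRA2 cells, and 11426 and 9283 in siRFXANK cells. The highest group was thus siRFXANK in DMSO, and the DMSO groups of siControl and siANKRA2, the lowest, did not differ. The response to Nutlin-3a was small, with a log2 of 0.11 in siControl cells (standard error 0.046, DESeq2 adjusted p = 0.037) and 0.27 in siANKRA2 cells (DESeq2 adjusted p = 6.6e-08), and had the opposite sign at -0.30 in siRFXANK cells (adjusted p of the normal test on DESeq2 values = 4.5e-10). Over siControl, siRFXANK gave 0.62 in DMSO and 0.21 in Nutlin-3a. For siANKRA2 the values were -0.01 in DMSO (95% interval -0.10 to 0.08), which did not pass, and 0.15 in Nutlin-3a (DESeq2 adjusted p = 0.0036).

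*ID2* stood at 228 in DMSO and 221 in Nutlin-3a with siControl, 226 and 197 in siANKRA2 cells, and 525 and 362 in siRFXANK cells. The siRFXANK groups stood above the other 4, and no neighbours among those 4 differed. Relative to siControl, *ID2* was 2.30-fold higher in siRFXANK cells in DMSO (DESeq2 adjusted p = 8.8e-34) and 1.64-fold higher with Nutlin-3a (DESeq2 adjusted p = 1.2e-11). For siANKRA2 the log2 difference was -0.01 in DMSO (95% interval -0.22 to 0.20) and -0.16 in Nutlin-3a (-0.37 to 0.05), neither of which passed. Nutlin-3a lowered *ID2* by 0.53 in siRFXANK cells, and the responses of -0.04 in siControl (95% interval -0.25 to 0.16) and -0.20 in siANKRA2 cells (-0.41 to 0.01) did not pass.

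*ID3* was the *ID* gene with the clearest response to Nutlin-3a. Its level was 2463 in DMSO and 4176 in Nutlin-3a with siControl, 5052 and 8245 in siANKRA2 cells, and 4582 and 4801 in siRFXANK cells. All 5 other groups were above siControl cells in DMSO. Nutlin-3a raised it by 0.76 in siControl cells (standard error 0.056, DESeq2 adjusted p = 3.3e-40) and by 0.71 in siANKRA2 cells (standard error 0.055, DESeq2 adjusted p = 1e-36), whereas the value in siRFXANK cells was 0.07 (95% interval -0.04 to 0.18, adjusted p of the normal test on DESeq2 values = 0.35). Already in DMSO, siANKRA2 and siRFXANK cells were higher than siControl cells by 1.04 and 0.90. In Nutlin-3a the difference was 0.98 for siANKRA2 (DESeq2 adjusted p = 2.6e-70) and 0.20 for siRFXANK (DESeq2 adjusted p = 0.001).

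*ID4* was at 216 in DMSO and 207 in Nutlin-3a with siControl, 536 and 502 in siANKRA2 cells, and 423 and 270 in siRFXANK cells. All 4 knockdown groups lay above both siControl groups. Over siControl, siANKRA2 raised *ID4* by 1.31 in DMSO and 1.28 in Nutlin-3a (DESeq2 adjusted p = 2.8e-38 and 1.2e-35), and siRFXANK by 0.97 and 0.39 (DESeq2 adjusted p = 1.6e-20 and 0.0012). The response to Nutlin-3a was -0.07 in siControl (95% interval -0.28 to 0.15) and -0.09 in siANKRA2 cells (-0.27 to 0.08), neither passing, and *ID4* fell by 0.65 in siRFXANK cells. In siRFXANK over siControl all 4 *ID* genes were higher in both treatments. Of all genes with a mean of at least 100, 34.0% were called higher in DMSO and 32.1% in Nutlin-3a. After siANKRA2 in DMSO, 2 of the 4 *ID* genes were higher, namely *ID3* and *ID4*, against 37.7% of genes with such a mean.

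*TGFBI* rose with Nutlin-3a in siControl cells and fell in siANKRA2 cells. Its level was 4687 in DMSO and 8273 in Nutlin-3a with siControl, 6739 and 5292 in siANKRA2 cells, and 3408 and 3776 in siRFXANK cells. All neighbouring groups in its order differed, with siControl in Nutlin-3a at the top and both siRFXANK groups at the bottom. Nutlin-3a raised *TGFBI* by 0.82 in siControl cells (standard error 0.045, DESeq2 adjusted p = 8.1e-73) and by 0.15 in siRFXANK cells (adjusted p of the normal test on DESeq2 values = 0.004), and in siANKRA2 cells it fell by 0.35 (standard error 0.045, DESeq2 adjusted p = 1.7e-13). Against siControl, siANKRA2 was higher by 0.52 in DMSO and lower by 0.64 in Nutlin-3a (DESeq2 adjusted p = 4.6e-30 and 1.4e-45). The siRFXANK cells were lower by 0.46 in DMSO and 1.13 in Nutlin-3a (DESeq2 adjusted p = 2.8e-22 and 5.7e-135).

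Counted over the 9 genes, Nutlin-3a raised 4 and lowered 1 in siControl cells, where 43.2% of all genes tested were called at an adjusted p under 0.05, 21.9% higher and 21.2% lower. In siANKRA2 cells 3 rose and 4 fell, against 15.5% and 17.0% of all genes (32.4% in either direction), and in siRFXANK cells 1 rose and 6 fell, against 22.8% and 22.5% (45.3%). The median log2 response of the 9 was 0.09, -0.20 and -0.30, while that of all genes lay within 0.02 of 0 in each comparison. All 9 genes have a mean of at least 100, and among 13103 such genes the share called in either direction was larger, at 67.5%, 48.7% and 70.3%. The numbers called in either direction were 5, 7 and 7 of the 9.

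**Figure D2:**
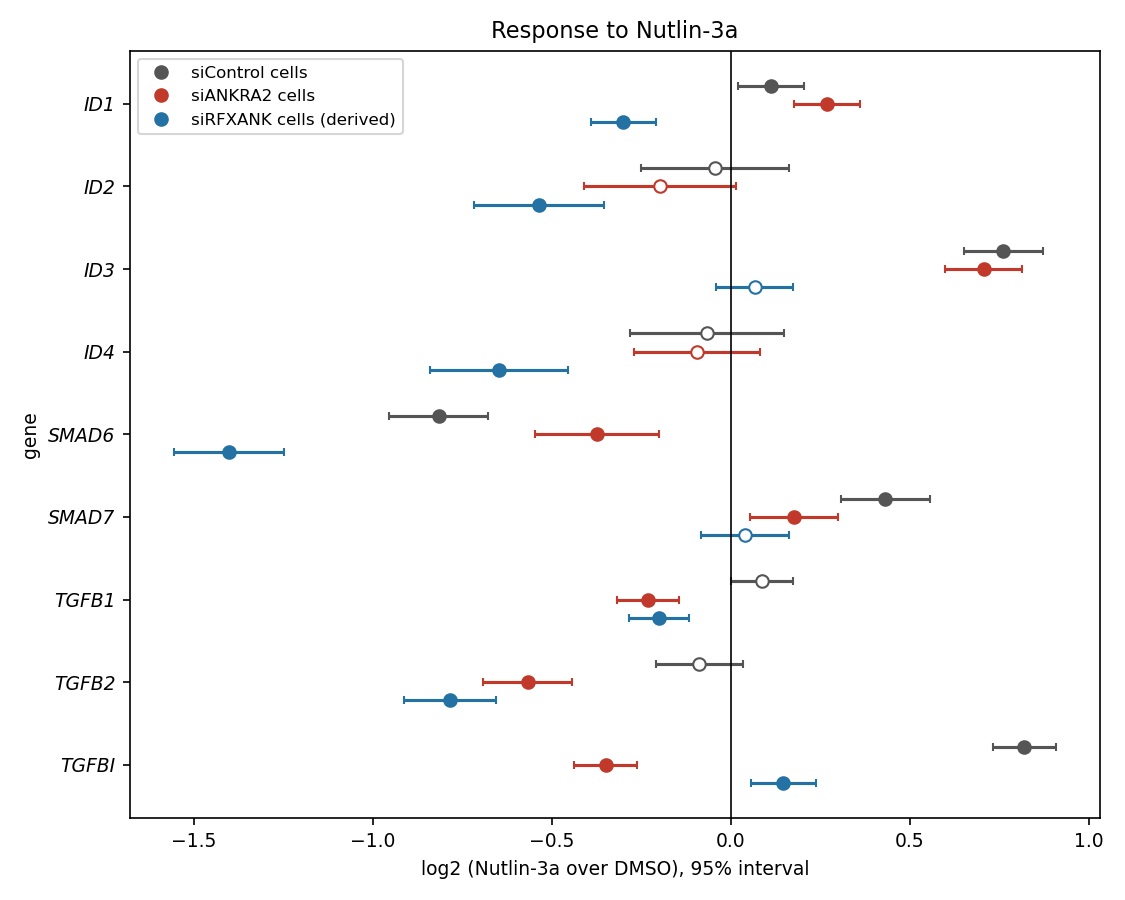
Log2 response to Nutlin-3a over DMSO (x axis) of each gene in siControl, siANKRA2 and siRFXANK cells, with 95% intervals, and filled points for an adjusted p under 0.05. *TGFBI* lies at 0.82 in siControl and -0.35 in siANKRA2 cells, and *SMAD6* below 0 in all 3.

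After siANKRA2, 6 of the 9 were higher and 1 lower than in siControl cells in DMSO, with 24.3% and 24.5% of all genes called (48.8% in either direction), and 3 were higher and 4 lower in Nutlin-3a, with 24.6% and 25.5% (50.1%). After siRFXANK all 9 were called in both treatments, 6 higher and 3 lower in DMSO against 20.9% and 21.2% of all genes (42.1% in either direction), and 5 higher and 4 lower in Nutlin-3a against 19.8% and 19.6% (39.4%). Genes with a mean of at least 100 were called in either direction in 77.0% and 78.1% of cases for siANKRA2 and in 69.5% and 62.7% for siRFXANK. *SMAD6* alone was lower, and *ID3* and *ID4* were higher, in all 4 comparisons. *TGFB1*, *SMAD7*, *TGFB2* and *TGFBI* took both signs. The medians of the 9 were 0.20 and -0.12 for siANKRA2 and 0.62 and 0.20 for siRFXANK. All these comparisons share the siControl samples, and those of siRFXANK include the separate registration.

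**Figure D3:**
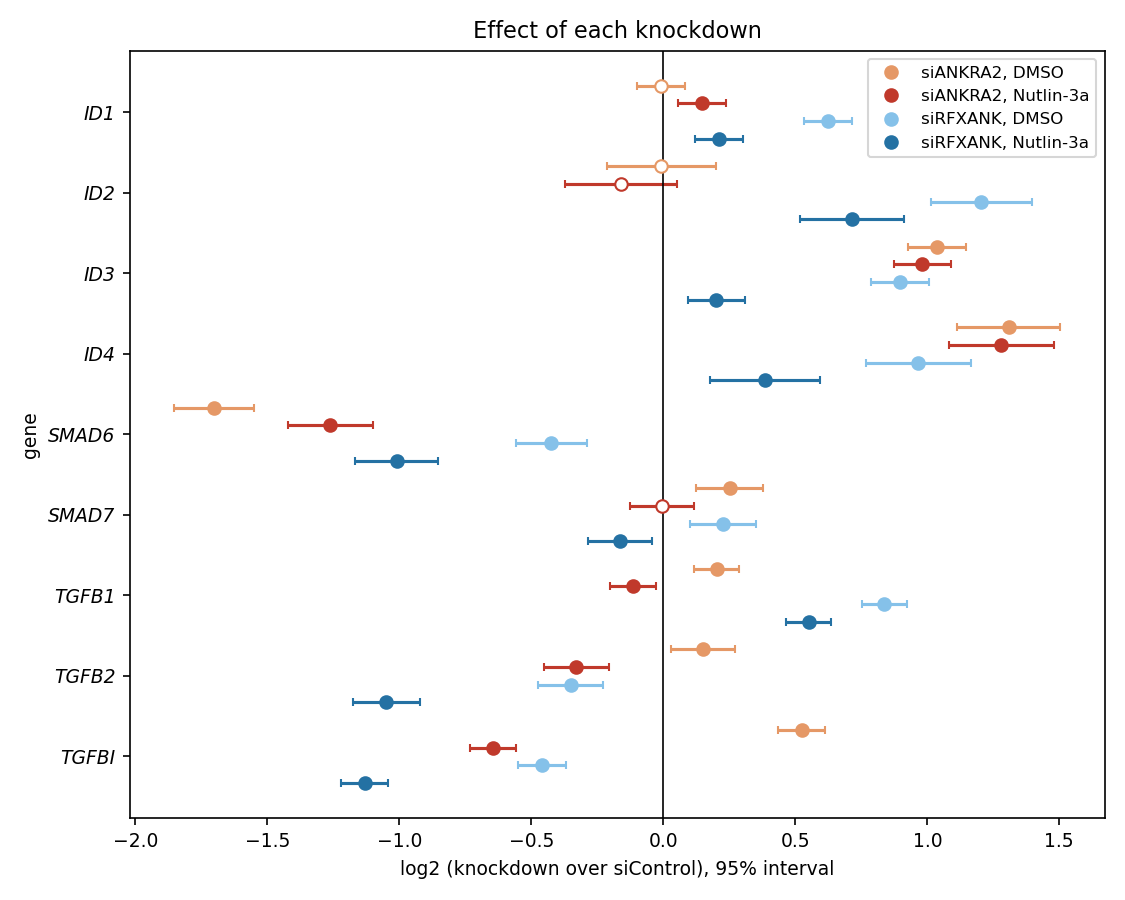
Log2 difference of each knockdown to siControl (x axis) in DMSO and Nutlin-3a, with 95% intervals, and filled points for an adjusted p under 0.05. *SMAD6* lies between -1.70 and -0.42 in the 4 comparisons, and *ID3* and *ID4* lie above 0 in all of them.

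Whether the response to Nutlin-3a differed between a knockdown and siControl was tested on the difference of the log2 responses. For siRFXANK this difference was below 0 and passed for 9 of 9 genes, against 9.64% of all genes tested (21.2% in either direction) and 16.8% of those with a mean of at least 100. It ranged from -0.29 for *TGFB1* to -0.70 for *TGFB2*, with *ID3* at -0.69 and *TGFBI* at -0.67, and the median was -0.58. Behind it, *ID1*, *ID2*, *ID4*, *SMAD6*, *TGFB1* and *TGFB2* fell with Nutlin-3a in siRFXANK cells, *ID3* and *SMAD7*, which rose in siControl cells, had no call, and *TGFBI* rose less. A batch that acts alike in both treatments cancels in this difference, and one that does not cannot be told apart from it.

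For siANKRA2 the difference passed for 5 of 9 genes, 1 above and 4 below 0, against 11.4% and 12.5% of all genes (24.0% in either direction) and 37.1% in either direction, 19.1% below 0, of those with a mean of at least 100. *TGFBI* had a difference of -1.17 (standard error 0.064, normal test on DESeq2 values, adjusted p = 2e-72). *TGFB2* at -0.48, *TGFB1* at -0.32 and *SMAD7* at -0.26 were below 0 too, and *SMAD6*, which fell less, was at 0.44. None of the 4 *ID* genes passed. Their differences were 0.16 for *ID1* (95% interval 0.03 to 0.29, adjusted p of the normal test on DESeq2 values = 0.067), -0.15 for *ID2* (-0.45 to 0.14), -0.06 for *ID3* (-0.21 to 0.10) and -0.03 for *ID4* (-0.31 to 0.25). The response difference of *CDKN1A* was -1.85 for siANKRA2 and -0.82 for siRFXANK, and that of *MDM2* was -1.19 and -0.33. Whether a smaller p53 response has a part in the differences of the 9 genes was not tested.

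Of further genes of the pathway, listed by role, 77 were found in at least 1 table. Nutlin-3a raised 33 and lowered 14 of 76 in siControl cells, 19 and 15 of 74 in siANKRA2 cells, and 32 and 18 of 75 in siRFXANK cells. Over all genes with a mean of at least 100, which 63 of these have, 32.4% were called higher and 35.1% lower in siControl cells, 21.8% and 26.8% in siANKRA2 cells, and 34.2% and 36.1% in siRFXANK cells. For the difference of the response to that of siControl cells, 7 were called above 0 and 30 below 0 of 74 with siANKRA2 (37.1% of the genes at that mean were called in either direction, 19.1% below 0), and 9 and 19 of 75 with siRFXANK (37.7%, 16.8%). Among the ligands, 5 rose and 4 fell of 14 in siControl cells. *GDF15*, a distant family member that signals through another receptor, had the largest responses among ligands with a mean of at least 100, of 4.36, 2.65 and 4.04 in siControl, siANKRA2 and siRFXANK cells. *BMP2*, an osteogenic ligand, was higher after siANKRA2 by 2.01 in Nutlin-3a and rose by 1.25 with Nutlin-3a in siRFXANK cells.

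Receptor genes had a narrower range of log2 responses to Nutlin-3a than the ligands, at -0.47 to 0.56 in siControl cells against -2.07 to 4.95. In siControl cells 4 of 12 rose and 2 fell with Nutlin-3a, against 32.4% and 35.1% of all genes with a mean of at least 100. *TGFBR3*, the co-receptor for TGF-beta 2, fell by 0.47. After siANKRA2 in DMSO 5 were higher and 4 lower, against 37.7% and 39.2% of genes with such a mean (77.0% in either direction). *TGFBR2*, the type II receptor of TGF-beta, was at 1.33. In Nutlin-3a *BMPR1A*, a type I receptor of BMPs, was at -1.05. *ENG*, the co-receptor endoglin, was higher after siRFXANK by 0.87 in DMSO and 1.04 in Nutlin-3a, while 8 of 12 receptors were lower and 3 higher in DMSO, against 35.4% and 34.0% of genes with such a mean. Of the receptor-activated SMADs with *SMAD4*, none of 6 was called higher and 4 lower after siANKRA2 in DMSO (37.7% and 39.2% of genes with such a mean), with *SMAD9* at -0.75. After siRFXANK 1 was higher and 4 were lower in each treatment. Of genes with such a mean 34.0% were higher and 35.4% lower in DMSO, and 32.1% and 30.6% in Nutlin-3a (69.5% and 62.7% in either direction). *SMAD4* was at -0.51 in Nutlin-3a. None of the 6 changed by more than a log2 of 0.45 with Nutlin-3a in any of the 3 cell groups.

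Of 15 inhibitor genes, 6 rose and 3 fell with Nutlin-3a in siControl cells, 3 rose and 1 fell in siANKRA2 cells, and 5 rose and 4 fell in siRFXANK cells. The shares called in either direction among all genes with a mean of at least 100, as 13 of the 15 have, were 67.5%, 48.7% and 70.3%. By direction 32.4% were higher and 35.1% lower in siControl cells, 21.8% and 26.8% in siANKRA2 cells, and 34.2% and 36.1% in siRFXANK cells. *PMEPA1*, a TGF-beta target that withholds SMADs from the receptor, rose by 1.03 in siControl cells, and its response was lower by 0.88 in siANKRA2 cells. *SMURF2*, a ubiquitin ligase for the receptors, was higher after siANKRA2 by 1.27 in DMSO and 1.31 in Nutlin-3a. *FSTL3*, a secreted binder of activins, was higher after siRFXANK by 2.06 and 1.38. Among 11 proteins of latency and activation, 9 of them with such a mean, 8 rose and 1 fell in siControl cells. The background there is the same 32.4% higher and 35.1% lower. *LTBP2* rose by 1.38 in siControl and 1.53 in siRFXANK cells, and *THBS1*, whose product activates latent TGF-beta, had a response difference of -1.26 with siANKRA2.

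Of 15 other target genes of TGF-beta or BMP, 12 have a mean of at least 100. With Nutlin-3a 8 rose and 1 fell in siControl cells, 4 rose and 4 fell in siANKRA2 cells, and 8 rose and 3 fell in siRFXANK cells. The shares of all genes with such a mean called higher and lower were 32.4% and 35.1%, 21.8% and 26.8%, and 34.2% and 36.1%. In either direction they were the same 67.5%, 48.7% and 70.3%. For the difference of the responses, 10 of the 15 were called below 0 and none above 0 with siANKRA2 (19.1% of genes with a mean of at least 100 were called below 0 and 37.1% in either direction), with a median of -0.70. With siRFXANK 9 were called below 0 and 1 above (16.8% and 20.9%), with a median of -0.43. *ACTA2*, the smooth muscle actin, rose by 3.12, 1.49 and 2.15 in the 3 cell groups. In DMSO 11 of the 15 were higher and 4 lower after siANKRA2, against 37.7% and 39.2% of genes with such a mean (77.0% in either direction). The median of the 15 was 1.18, and *CTGF*, a matrix-associated growth factor, was at 2.23. Of the binding partners of ID proteins, *TCF3* fell by 0.49, 0.42 and 0.59 and *TCF4* by 0.52, 0.41 and 0.56 in siControl, siANKRA2 and siRFXANK cells, and *TCF12* did not pass in the first 2 and rose by 0.23 in siRFXANK cells.

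**Figure D4:**
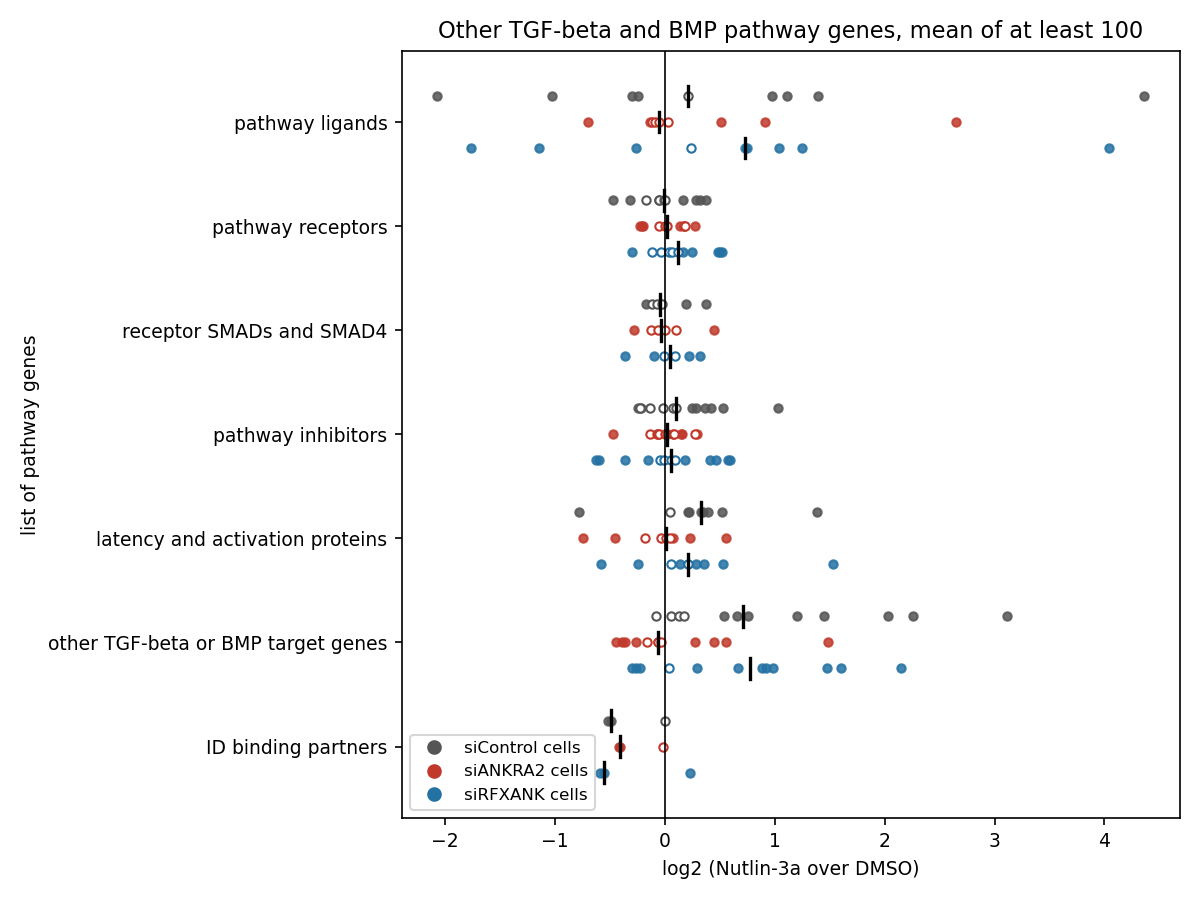
Log2 response to Nutlin-3a (x axis) of further pathway genes with a mean of at least 100, by list (y axis) and cell group, with filled points for an adjusted p under 0.05 and a bar at the median. Other target genes are spread up to 3.12 in siControl cells and up to 1.49 in siANKRA2 cells, and the SMAD and receptor genes lie closer to 0.

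The pattern of each gene over the groups was taken as its 5 log2 differences to siControl cells in DMSO, and the Euclidean distance to 13102 other genes with a mean of at least 100 was computed. Nearest to *SMAD6* were *LDLRAD4* at 0.337, which encodes a membrane protein that withholds SMADs from the TGF-beta receptor, and *AXIN2*, a feedback inhibitor of Wnt signalling, at 0.399, where the median gene was at 3.42. Nearest to *TGFBI* were *CLIC4P1* (0.362) and *PHLDB2* (0.421), to *TGFB1* *AC106760.2* (0.166) and *CCM2* (0.204), to *TGFB2* *GCNT1* (0.431) and *ZNRF1* (0.449), and to *SMAD7* *SLC17A5* (0.126) and *AC007688.1* (0.129). The nearest genes of *ID1* were *ARF5* (0.175) and *ZNF428* (0.187), of *ID2* *CAMK2N2* (0.242) and *USE1* (0.315), of *ID3* *ATP6V0E1* (0.405) and *HSD17B1* (0.419), and of *ID4* *BOD1* (0.302) and *DDRGK1* (0.343). None of the 9 genes was among the nearest of another. Within the 9, *ID2* and *TGFB1* were closest at 0.479, followed by *ID1* and *TGFB1* at 0.523, and *ID3* and *SMAD6* were farthest apart at 5.84.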

How the data were processed

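Polyadenylated RNA of 18 samples was sequenced. The submitters' processing notes name bcl2fastq 2.20.0.422, Trimmomatic 0.39, cutadapt 2.10, FastQC 0.11.9, SAMtools 1.10, Picard, featureCounts 1.6.5, DESeq2 1.20.0 and hg38. The aligner, the annotation and the strand setting are not given in the sources used here. What the authors deposited are 6 DESeq2 comparison tables without counts per library. A count model could therefore not be fitted, and the study's own comparison columns were used under their name. Each table gives the authors' mean normalized count, treated as a signal value. It also holds the deposited log2 fold change with its standard error, a deposited Wald score equal to their ratio, and the authors' p-value, raw and adjusted by Benjamini-Hochberg over the table. A call is an adjusted p under 0.05.

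Fold changes among siControl and siANKRA2 groups closed with an error of at most 1.39e-14 (log2), as values of a single fit do. The names of the knockdown tables do not give the numerator. Read as knockdown over siControl, the group variance implied by the standard errors was smaller at the higher level in 2153 of 2153 and 2148 of 2148 genes for siRFXANK (mean between 5 and 100, absolute log2 of at least 1), against 58.6% and 60.0% in the opposite reading.

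The Nutlin-3a response in siRFXANK cells was the siRFXANK over siControl value in Nutlin-3a minus that in DMSO plus the siControl response. Its squared standard error was the sum of the first pair minus that of the siControl response. A difference of responses was tested against its standard error, whose square is the sum of both squared errors, with a two-sided normal p and Benjamini-Hochberg adjustment over all genes. Group levels were anchored on the deposited mean, and standard errors between groups are exact for 9 of 15 pairs and fitted for 6. The arithmetic was tested on simulated data. Of 26702 gene IDs, 26659 (99.8%) were found in GENCODE 29. Python 3.11.15, pandas 2.3.3 and scipy 1.17.1 were used.

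The 9 genes, the pathway lists and the tests were chosen with earlier results of these data known. Named from each list was, per comparison, the called gene with the largest absolute log2 value among those with a mean of at least 100, and for each of the 9 genes the 2 nearest genes. Of the genes this rule gives, 1 is not reported here. *TCF3*, *TCF4* and *TCF12* were named throughout as the complete list, and further values of *BMP2* were given after they were seen.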

Additional observations from a re-analysis of the deposited data

Results flagged for a closer look

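The response to Nutlin-3a differed between siANKRA2 and siControl cells for 5 of the 9 genes by the normal test of the difference. The share over all genes was 24.0%, and 37.1% over those with a mean of at least 100. The differences in log2 response, siANKRA2 minus siControl, were 0.44 for SMAD6, -0.26 for SMAD7, -0.32 for TGFB1, -0.48 for TGFB2 and -1.17 for TGFBI. For TGFBI the response itself had opposite signs in the 2 cell groups.

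Between siRFXANK and siControl cells the response differed for 9 of 9 genes, always below 0. Over all genes 21.2% differed, 9.64% below 0, and over those with a mean of at least 100 it was 37.7% and 16.8%. The differences in log2 response, siRFXANK minus siControl, were -0.41 for ID1, -0.49 for ID2, -0.69 for ID3 and -0.58 for ID4. They were -0.59 for SMAD6 and -0.39 for SMAD7, -0.29 for TGFB1, -0.70 for TGFB2 and -0.67 for TGFBI. A batch effect that differs between DMSO and Nutlin-3a cannot be told apart from these values.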

How the results depend on the processing

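No paired analysis was possible because no library has values of its own in these tables. Leaving out a replicate and another count model, normalization or filter on counts were not run for this reason, and depth per library is unknown. The settings tried were a threshold of 0.01, an absolute log2 of at least 1, means of at least 10 or 100 and centring on the median. Adjusted p-values were also computed again, and the siANKRA2 difference was taken from its other 2 tables. Of these settings, only centring can change the sign of a log2 value. None of the 81 values of the 9 genes changed sign where it was called. SMAD7 after siANKRA2 in Nutlin-3a, which had no call, went from -0.005 to 0.002 with centring. A threshold of 0.01 removed 6 calls, which were ID1 under Nutlin-3a in siControl cells, SMAD7 under Nutlin-3a in siANKRA2 cells, TGFB2 after siANKRA2 in DMSO, TGFB1 after siANKRA2 in Nutlin-3a, SMAD7 after siRFXANK in Nutlin-3a and the SMAD7 response difference for siANKRA2. The ID1 response difference for siANKRA2 passed with a mean of at least 100 (DESeq2 values, adjusted p = 0.043) and with centring (adjusted p = 0.046).

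By its own construction, an absolute log2 of at least 1 left fewer calls. Over all genes they were 2901, 988 and 2553 for Nutlin-3a in siControl, siANKRA2 and siRFXANK cells, 3625 and 3883 for siANKRA2 in DMSO and Nutlin-3a, 1677 and 1456 for siRFXANK, and 827 and 388 for the response differences of siANKRA2 and siRFXANK. Over the 9 genes they were 0, 0 and 1, then 3 and 2, then 1 and 3, then 1 and 0. Levels in siControl cells in DMSO fitted from the standard errors instead of the deposited mean were 7115 for ID1, 2587 for ID3, 1181 for SMAD6, 732 for SMAD7, 4734 for TGFB1, 2439 for TGFB2 and 5974 for TGFBI, and the cause was not tested.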
